A study of Mus musculus with 62 samples.

Results

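The nuclear-encoded respiratory chain subunits are the genes in the cell nucleus that code for the protein parts of complexes I to IV of the mitochondrial electron transport chain and of ATP synthase, called complex V. They were taken from the table by their symbols, with the name patterns Nduf followed by a, b, c, s or v and a number, Sdha to Sdhd, Uqcr, Cox4 to Cox8 and Atp5, leaving out pseudogenes. This gave 84 of 47643 gene symbols, with 37 for complex I, 4 for complex II, 8 for complex III, 18 for complex IV and 17 for complex V. Of the 84, 80 reached 1 TPM (a level scaled for transcript length and for the library's total) in at least 5 libraries and were tested. The cytochrome oxidase genes Cox4i2 and Cox6b2 reached 1 TPM in only 3 and 2 libraries, and Cox7b2 and Cox8c in none. The symbols Atp5s and Atp5sl carry the Atp5 name, but their products are not structural subunits of ATP synthase. Ndufa4, whose protein is now placed at complex IV, and its paralog Ndufa4l2 are counted with complex I by their symbols.

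The levels came from livers of female mice that were 2 months old per the labels. One arm received cachectic melanoma cells, a tumour that causes wasting (CAC), one received non-cachectic melanoma cells (NCAC), and one was mock injected (Con). Livers were sampled 2, 4, 6 and 8 weeks after injection, with 62 libraries in all: 7 in the CAC group of 8 weeks and 5 in each of the others. The labels call the strain C57BL/6J, whereas the study's design text names nude mice (NCI Ath/nude), and the labels do not settle which applies. The extraction protocol also refers to a carcinoma line, LLC, sampled 3 weeks after injection, which matches none of the groups. The libraries are called biological replicates, and the labels do not say how many tumour clones, cages or injection days they come from.

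Complex I takes electrons from NADH and complex II takes them from succinate. Complex III passes them to cytochrome c, complex IV hands them to oxygen, and the proton gradient that complexes I, III and IV build drives ATP synthase. Hepatocytes are rich in mitochondria and use this machinery to burn fatty acids and to pay for urea, glucose and plasma protein synthesis. Nearly all of its subunits are encoded in the nucleus and imported, while a small set is encoded in mitochondrial DNA.

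The libraries had hepatocyte transcripts at high levels: at 8 weeks the summed TPM of 9 hepatocyte markers ran between 112941 and 141619 in CAC, 95812 and 135424 in NCAC, and 114792 and 133362 in Con. In 15 of the 62 libraries transcripts of another tissue stood out, with at least 100 TPM of the pancreatic enzyme Ctrb1 (9 libraries) or at least 10 TPM of muscle actin Acta1 or of the brown fat protein Ucp1. They include CAC replicate 7, NCAC replicates 1 and 5 and Con replicates 2 and 4 at 8 weeks. Con replicate 2 had 1906 TPM of Ctrb1 and 226 TPM of Acta1. The summed TPM of 10 pancreatic markers at 8 weeks ran between 0 and 0.739 in CAC, 0 and 7.32 in NCAC, and 0 and 5749 in Con. The Kupffer cell sum ran between 131 and 513 in CAC, 214 and 310.4 in NCAC, and 384 and 492 in Con, and 3 of its 6 markers were called lower in CAC than in Con. The sum of 5 sinusoidal endothelial markers ran between 73.1 and 192 in CAC, 58.5 and 81.2 in NCAC, and 58.5 and 105 in Con, and 3 of the 5 were called higher in CAC. All 10 pancreatic markers, all 3 tested B cell markers and 3 of 4 tested erythroid markers were called lower in CAC than in Con. Over all tested genes 35.3 percent were called lower and 5.87 percent higher in that comparison. No difference of a marker list from these shares was tested. Of 5 melanoma markers 3 were at 0 in every CAC and every NCAC liver of 8 weeks, and the sum of the 5 reached 24.1 TPM in CAC, 24.1 TPM in NCAC and 13.6 TPM in Con. In bulk tissue, fewer cells of a type and less RNA per cell cannot be told apart, and the part that these other cells have in the differences below was not tested.

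At 8 weeks the respiratory chain genes were lower in CAC livers than in Con livers across all 5 complexes. The 84 genes together made up 11159 ± 1901 TPM in CAC (SD, n = 7), 14977 ± 1186 TPM in NCAC and 15702 ± 2405 TPM in Con (n = 5 each), which is 1.12, 1.50 and 1.57 percent of each library. In CAC the sums ran between 9369 and 15199 TPM with a median of 10829. In NCAC they were 16369, 13755, 15740, 13742 and 15280 TPM, and in Con 13765, 19240, 16445, 15865 and 13196 TPM. Of the 7 CAC livers 6 lay below every NCAC and Con liver, and CAC replicate 3 lay within both. That liver had the highest level among CAC for 72 of the 80 tested genes. Saa1, the serum amyloid of the acute phase response, stood at 3365 TPM in it, and between 21969 and 44151 TPM in the other CAC livers at 8 weeks. Con replicate 2, which with Con replicate 4 (282 TPM of Ctrb1) held pancreatic transcripts, was the highest of Con for 65 of the 80. In Con replicate 2 the median log2 level, less the mean of Con, was 0.48 over short genes and -0.42 over long genes. The part that transcript length has in its levels was not tested.

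**Figure D1:**
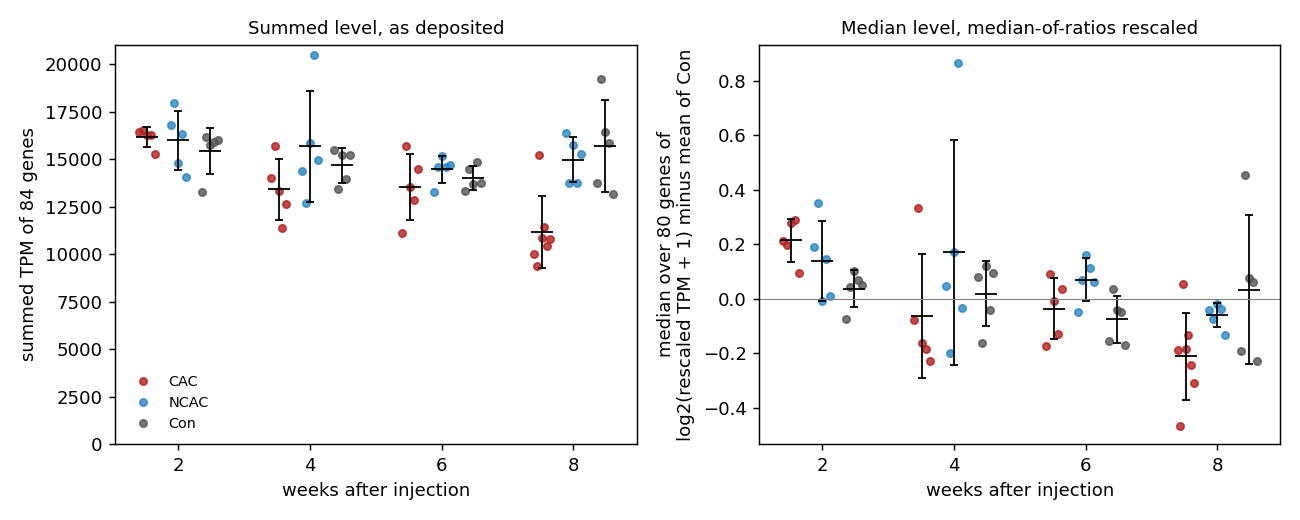
Left, the summed TPM of the 84 respiratory chain genes in each of the 62 libraries (points) by week after injection for CAC, NCAC and Con, with mean and SD. Right, the median over the 80 tested genes of log2(TPM + 1) after median-of-ratios rescaling, less the mean of all Con libraries, per library. At 8 weeks 6 of 7 CAC sums lie below all NCAC and Con sums, and at 2 weeks the sums of the 3 arms overlap.

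By limma, on log2(TPM + 1) over 12160 genes with Benjamini-Hochberg adjustment, 70 of the 80 genes were called lower in the CAC livers of 8 weeks than in the Con livers at an adjusted p under 0.05, and 0 were called higher. Over all tested genes 35.3 percent were called lower and 5.87 percent higher. The median log2 difference of the 80 genes was -0.50, with quartiles of -0.58 and -0.41, against -0.21 over all tested genes, and 78 of the 80 differences were below 0. By complex the genes called lower were 34 of 37 in complex I (median log2 difference -0.50), 4 of 4 in complex II (-0.58), 6 of 8 in complex III (-0.47), 10 of 14 in complex IV (-0.49) and 16 of 17 in complex V (-0.55). In 5 of the 80 genes, Ndufa10, Ndufa9, Ndufv1, Atp5b and Atp5g3, every CAC liver lay below every Con liver, against 6.09 percent of all tested genes. That share of the 80 is close to the background. 

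TPM are shares of a library, and a transcript that takes a larger share leaves less for all others. With each library rescaled by the median of its gene ratios, under which the median over all tested genes was -0.00 rather than -0.21, 18 of the 80 genes were still called lower and 0 higher, against 13.9 percent of all tested genes called lower and 12.8 percent higher. The median log2 difference of the 80 was then -0.26. Among genes with transcripts under 1 kb the rescaled median was -0.26 for the 47 respiratory chain genes and -0.14 for all tested genes. Between 1 and 2 kb these medians were -0.23 and -0.07, between 2 and 4 kb -0.35 and -0.00, and above that -0.31 and 0.07. The 18 included Ndufa9, Ndufa10, Ndufb8, Ndufb10, Ndufs1 and Ndufv1 of complex I, all 4 genes of complex II, Uqcrc1 and Uqcrc2 of complex III, Cox5a of complex IV, and Atp5a1, Atp5b, Atp5g3 and Atp5k of complex V. After rescaling only Atp5g3 had every CAC liver below every Con liver, against 2.48 percent of all tested genes. Leaving out the 15 libraries with transcripts of other tissues gave 54 genes lower on the deposited scale (median log2 difference -0.35), against 34 percent of all tested genes. With both changes 8 were lower, against 8.54 percent of all tested genes, and 1, Cox7a2l, was higher, against 9.65 percent, with a median of -0.06. A count of 8 in 80 is close to that background. Those 8, called lower under each scaling tried and without those libraries, were Ndufa9, Ndufa10, Ndufs1, Sdha, Uqcrc1, Uqcrc2, Atp5a1 and Atp5b. After rescaling, leaving out Con replicate 2 gave 11 lower and 1 higher, against 10.4 and 10.7 percent of all tested genes. Leaving out CAC replicate 3 gave 31 lower, against 16.9 percent, Con replicate 1 gave 27, against 13.5 percent, and Con replicate 5 gave 36, against 16 percent.

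**Figure D2:**
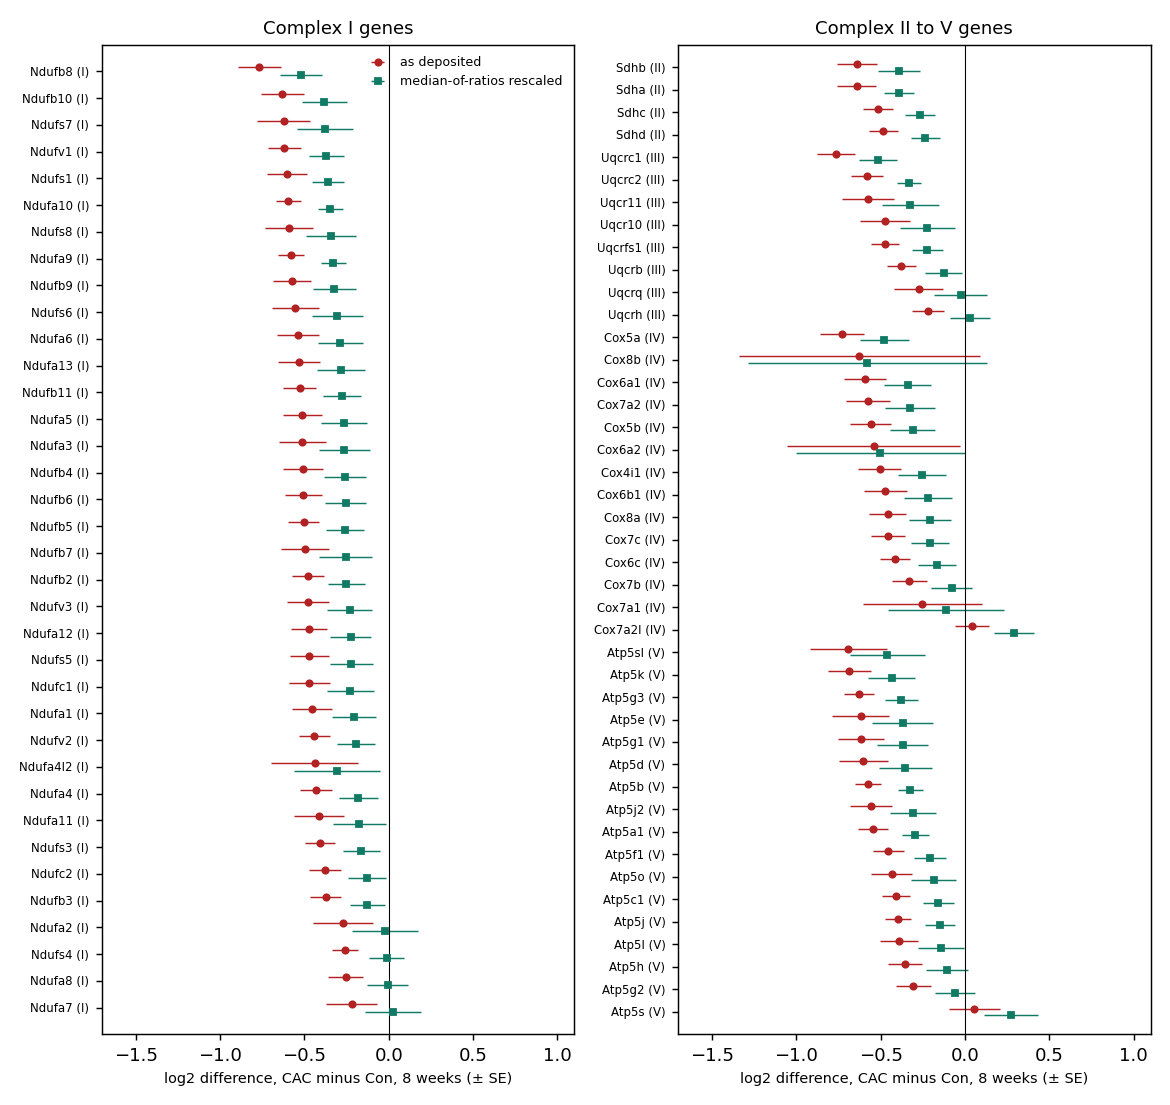
The log2 difference of 79 of the 80 tested genes in CAC minus Con livers at 8 weeks, with its standard error, grouped by complex, as deposited (circles) and after median-of-ratios rescaling (squares). On the deposited scale 78 of all 80 genes were below 0, and rescaling moves the median of the 80 to -0.26 from -0.50.

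Complex I, NADH dehydrogenase, had genes called lower both in its catalytic core and among its accessory subunits, and no difference between these was tested. The 7 nuclear core subunits, among them those that hold the flavin and the iron-sulfur clusters, were all called lower on the deposited scale, with a median log2 difference of -0.59. The 10 tested Ndufb genes, whose products sit in the membrane arm, were also all called lower, with a median of -0.51, and 17 of 20 other accessory subunits were, with a median of -0.47. These 20 include Ndufa4 and Ndufa4l2 by their symbols. After rescaling the medians were -0.34, -0.26 and -0.23 for the core, the Ndufb genes and the other accessory subunits. Ndufa10, an accessory subunit (ENSMUSG00000026260.12, mm10 chr1:92439010-92473860, minus strand), had the smallest p of the complex. Its level ran between 59.8 and 92.5 TPM with a median of 66.0 in CAC, against 100.4, 109.5, 109, 108 and 93.6 TPM in Con, and was 103, 95.6, 105, 100.2 and 101 TPM in NCAC. On the deposited scale all 7 CAC livers were below all Con and NCAC livers, by little for CAC replicate 3. After rescaling CAC overlapped both. The log2 difference between CAC and Con was -0.35 after rescaling (adjusted p = 0.000393) and -0.59 as deposited. Ndufa9, which sits beside the quinone site, differed by -0.58 ± 0.08 (adjusted p = 5.45e-08) and by -0.33 after rescaling (adjusted p = 0.000585).

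Ndufs1, the largest core subunit, which carries iron-sulfur clusters (ENSMUSG00000025968.16, chr1:63143596-63176833, minus strand), ran between 32.9 and 48.8 TPM with a median of 33.7 in CAC, and was 58.9, 41.9, 63.9, 52.6 and 63.0 TPM in Con. The Con liver at 41.9 TPM was replicate 2, so CAC replicate 3 and this liver alone made the groups overlap, and the 5 NCAC livers lay above all CAC livers at 66.9, 56.7, 56.1, 57.4 and 59.1 TPM. The log2 difference between CAC and Con was -0.60 ± 0.12 (adjusted p = 4.74e-05), and -0.36 after rescaling (adjusted p = 0.00348). Ndufb8, a distal membrane arm subunit (chr19:44548572-44555440, minus strand), had the lowest log2 difference of all 80 genes, -0.77 ± 0.13 (adjusted p = 4.34e-06). It ran between 35.9 and 75.9 TPM with a median of 46.8 in CAC, against 69.2, 99.5, 92.3, 78.7 and 67.9 TPM in Con, and only CAC replicate 3 reached into the Con range. Ndufv1, which binds NADH, differed by -0.62 ± 0.10 (adjusted p = 3.38e-06). Ndufb9, among the most abundant of the complex by TPM, averaged 376 TPM in CAC and 558 TPM in Con and differed by -0.57 ± 0.11 (adjusted p = 6.37e-05). Ndufa4, whose protein is now placed at complex IV, averaged 238 ± 34.5 TPM in CAC and 321 ± 49.5 TPM in Con, a log2 difference of -0.43 ± 0.10 (adjusted p = 0.000335). Its paralog Ndufa4l2, which hypoxia induces in other tissues, ran between 0.435 and 1.48 TPM in CAC and between 0.915 and 3.91 TPM in Con and did not pass the test, at -0.44 ± 0.26 (adjusted p = 0.169). Ndufa2 at -0.27 ± 0.18 and Ndufa7 at -0.22 ± 0.15 did not pass either.

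Complex II, succinate dehydrogenase, also works in the citric acid cycle, and all of its subunits are encoded in the nucleus. Sdha, the flavoprotein that oxidises succinate (ENSMUSG00000021577.14, chr13:74322254-74350280, minus strand), ran between 136 and 245 TPM with a median of 156 in CAC, against 257, 204, 308, 238 and 255 TPM in Con. Of the 7 CAC livers 6 were below all 5 Con livers, and the exception was replicate 3. The log2 difference was -0.64 ± 0.12 (adjusted p = 1.89e-05), and -0.39 after rescaling (adjusted p = 0.000675). Sdhb, the iron-sulfur subunit, averaged 123 ± 25.9 TPM in CAC and 191 ± 32.2 TPM in Con, and the log2 difference was also -0.64 ± 0.12 (adjusted p = 2.81e-05). The membrane anchors Sdhc and Sdhd differed less, by -0.51 ± 0.09 (adjusted p = 9.96e-06) and -0.48 ± 0.09 (adjusted p = 1.58e-05). Sdhd averaged 224 ± 37.5 TPM in CAC, 329 ± 36.9 TPM in NCAC and 310.0 ± 16.8 TPM in Con. After rescaling Sdhb, Sdhc and Sdhd were at -0.39, -0.27 and -0.23, with adjusted p of 0.0152, 0.0197 and 0.0413.

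Promoters of respiratory genes are known for sites of the nuclear respiratory factor NRF1, of ETS family factors (GABP), of the estrogen-related receptors and of YY1. RefSeq (GRCm38.p6) gave promoters of 66 of the 84 genes, from 250 bases before to 50 after the start, and both strands were searched. The NRF1 motif, which reads GCGCA, any base, then GCGC, was in 16 of the 66 (24.2 percent), against 4.78 percent of all 27025 promoters. The YY1 motif AANATGGC was in 14 (21.2 percent, against 6.23 percent), the ETS motif CCGGAAGT in 5 (7.58 percent, against 4.0 percent) and the estrogen-related receptor motif TNAAGGTCA in 3 (4.55 percent, against 1.26 percent). No motif is contained in another. A match is a run of letters and does not show that a factor binds there. Of the 18 genes called lower after rescaling, 13 had a promoter, and 3 of these held a motif in the 120 bases upstream of the gene in both RefSeq and GENCODE M21. These 3 are shown because they are the called genes with a motif there. No share over all promoters was taken for the 120 bases, so the 3 of 13 cannot be set against the percentages above. In the longer window, from 250 bases before to 50 after the start, others of the 13 had a motif as well. Atp5k and Uqcrc1 had that of NRF1, and Ndufa9, Ndufb8, Ndufb10 and Atp5b that of YY1. The sequences read 5′ to 3′ on the gene's strand, with the motif in capitals and its first base counted from the RefSeq start. For Sdha the window ends where GENCODE starts the gene, which lies upstream of the RefSeq start. Sdha, from chr13:74350281-74350400 on the minus strand, has the NRF1 motif at 98 and again at 55 bases before the start, and Sdhd, from chr9:50603850-50603969 on the minus strand, has it once, at 79 bases before the start. Atp5g3, from chr2:73911327-73911446 on the minus strand, has the estrogen-related receptor motif at 52 bases before the start, where its reverse complement is printed.
Sdha: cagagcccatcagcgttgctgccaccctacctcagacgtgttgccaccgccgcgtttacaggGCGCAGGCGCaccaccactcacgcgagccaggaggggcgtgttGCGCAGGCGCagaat
Sdhd: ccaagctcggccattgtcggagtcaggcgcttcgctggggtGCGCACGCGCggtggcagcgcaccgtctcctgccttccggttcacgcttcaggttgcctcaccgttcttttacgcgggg
Atp5g3: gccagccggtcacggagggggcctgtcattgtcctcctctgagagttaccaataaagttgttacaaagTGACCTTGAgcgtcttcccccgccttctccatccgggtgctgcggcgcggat

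Complex III, cytochrome bc1, had its lowest log2 difference in a core protein. Uqcrc1, core protein 1 (chr9:108936633-108949623, plus strand), ran between 53.7 and 101 TPM with a median of 65.2 in CAC, against 98.6, 137, 136, 109 and 97.6 TPM in Con. The 2 groups overlap only through CAC replicate 3. The log2 difference was -0.76 ± 0.11 (adjusted p = 7.32e-07), and -0.52 after rescaling (adjusted p = 0.000413). Uqcrc2, core protein 2 (ENSMUSG00000030884.12, chr7:120635176-120659524, plus strand), ran between 112 and 171 TPM with a median of 121 in CAC, and was 194, 164, 210.1, 184 and 187 TPM in Con and 212, 186, 199, 183 and 189.9 TPM in NCAC. All CAC livers were below all NCAC livers, and the Con liver at 164 TPM was replicate 2. The log2 difference from Con was -0.58 ± 0.09 (adjusted p = 2.34e-06), and -0.33 after rescaling (adjusted p = 0.000393). The Rieske iron-sulfur protein Uqcrfs1 differed by -0.47 ± 0.08 (adjusted p = 1.07e-05), and the small subunits Uqcr11 and Uqcr10 by -0.58 ± 0.15 (adjusted p = 0.00251) and -0.47 ± 0.15 (adjusted p = 0.00881). The hinge protein Uqcrh at -0.22 ± 0.09 (adjusted p = 0.0538) and the small subunit Uqcrq at -0.27 ± 0.14 (adjusted p = 0.124) did not pass the test, and after rescaling Uqcrh was at 0.03.

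Complex IV, cytochrome c oxidase, had 1 gene called after rescaling, Cox5a. Cox5a, a subunit on the matrix side (chr9:57521274-57532426, plus strand), ran between 175 and 368 TPM with a median of 228 in CAC, against 315, 519.7, 431, 361 and 338 TPM in Con. CAC replicate 3 again lay among the Con livers, the other 6 below all of them. The log2 difference was -0.73 ± 0.13 (adjusted p = 1.94e-05), and -0.48 after rescaling (adjusted p = 0.01). Cox6a1, the form of subunit VIa found in liver, averaged 385 ± 72.2 TPM in CAC and 583 ± 131 TPM in Con, a log2 difference of -0.59 ± 0.12 (adjusted p = 0.00017). After rescaling it was at -0.34 and did not pass (adjusted p = 0.0597). The widely expressed forms Cox4i1, Cox6b1, Cox7a2 and Cox8a were all called lower on the deposited scale, with log2 differences of -0.50 ± 0.13, -0.47 ± 0.12, -0.57 ± 0.13 and -0.46 ± 0.11. Cox7a2l, which encodes a factor that joins complexes III and IV into supercomplexes (ENSMUSG00000024248.14, chr17:83501918-83517330, minus strand), stood apart from these. It ran between 152 and 179 TPM with a median of 167 in CAC, and was 191, 152, 208, 147 and 171 TPM in NCAC and 143, 184, 158, 174 and 158 TPM in Con. The 3 arms overlapped throughout. The log2 difference from Con was 0.04 ± 0.10 (adjusted p = 0.759) as deposited, 0.29 after rescaling (adjusted p = 0.0616), -0.13 with the 20 highest genes removed, and -0.00 without Con replicate 1, so its sign depends on the scaling.

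Several complex IV subunits come in forms for other tissues, and in these libraries those forms went with the markers of those tissues. Cox6a2, the form of heart and skeletal muscle, was 15.8 TPM in Con replicate 2 at 8 weeks and at most 0.0760 TPM in the other Con livers of that week. Over all 62 libraries it ran between 2.52 and 15.8 TPM, with a median of 8.98, in the 5 with at least 10 TPM of Acta1, and between 0 and 1.88 TPM, with a median of 0, in the other 57. Cox8b, the form of muscle and brown fat, ran between 2.94 and 60.8 TPM in the 5 libraries with at least 10 TPM of Ucp1. In the other 57 it ran between 0 and 22.7 TPM with a median of 0.128, and the library at 22.7 TPM was NCAC replicate 5 at 8 weeks, which had 409.6 TPM of Acta1. Cox7a1, the muscle form of subunit VIIa, ran between 1.92 and 15.5 TPM with a median of 9.58 in the libraries with Acta1. In the others it ran between 0.741 and 4.59 TPM with a median of 1.72, so the ranges overlap, and it was at 0 in none. None of Cox6a2, Cox8b and Cox7a1 was called between CAC and Con at 8 weeks, at -0.54 ± 0.51 (adjusted p = 0.413), -0.63 ± 0.71 (adjusted p = 0.506) and -0.25 ± 0.35 (adjusted p = 0.596). Without Con replicate 2 all 3 were above 0, at 0.26, 0.13 and 0.23.

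**Figure D3:**
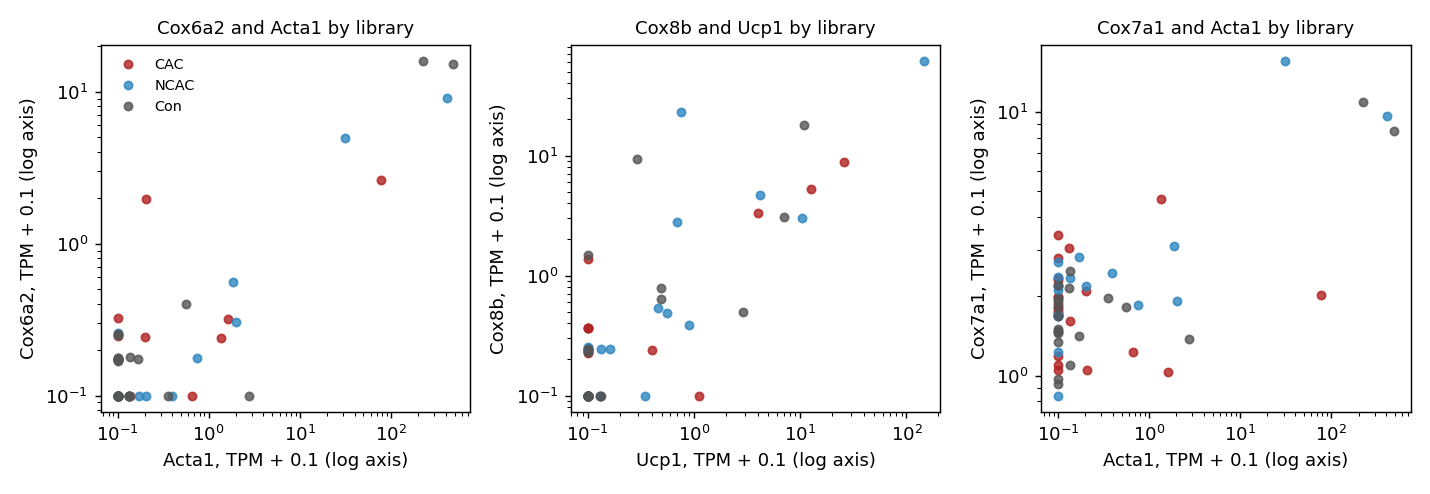
Levels of Cox6a2, Cox8b and Cox7a1 in each of the 62 libraries against a marker of another tissue, muscle actin Acta1 or brown fat Ucp1, both as TPM + 0.1 on log axes, coloured by arm. The libraries at the right with at least 10 TPM of the marker hold most of the high levels, up to 15.8 TPM for Cox6a2 and 60.8 TPM for Cox8b.

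Complex V, ATP synthase, had its smallest p in a catalytic subunit. Atp5b, the beta subunit where ATP is made (ENSMUSG00000025393.12, chr10:128083273-128090391, plus strand), ran between 285 and 457 TPM with a median of 337 in CAC, against 488, 540.0, 554, 514 and 506 TPM in Con and 596, 484, 544, 489 and 559.7 TPM in NCAC. On the deposited scale every CAC liver, replicate 3 included, was below every Con and NCAC liver. After rescaling CAC overlapped Con but not NCAC. The log2 difference from Con was -0.57 ± 0.08 (adjusted p = 7.05e-08), and -0.32 after rescaling (adjusted p = 0.000644). Its partner Atp5a1, the alpha subunit, differed by -0.55 ± 0.09 (adjusted p = 2.94e-06), and by -0.29 after rescaling (adjusted p = 0.00368). Atp5g3, 1 of 3 genes for the c subunit of the rotor ring, whose upstream sequence holds the estrogen-related receptor motif, ran between 134 and 202 TPM with a median of 163 in CAC, against 224, 289.7, 245, 274 and 238 TPM in Con. No CAC liver reached the lowest Con liver. The log2 difference was -0.63 ± 0.09 (adjusted p = 1.4e-07), and -0.38 after rescaling (adjusted p = 0.00262). The other two c subunit genes differed by -0.61 ± 0.14 (Atp5g1, adjusted p = 0.000308) and -0.31 ± 0.10 (Atp5g2, adjusted p = 0.0163). The small membrane subunits Atp5k and Atp5l differed by -0.68 ± 0.13 (adjusted p = 3.17e-05) and -0.39 ± 0.11 (adjusted p = 0.00469). Atp5s, which is not a structural subunit, was the 1 gene of the group not called, at 0.06 ± 0.15 (adjusted p = 0.798). Atp5sl was at -0.69 ± 0.23 (adjusted p = 0.0127).

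**Figure D4:**
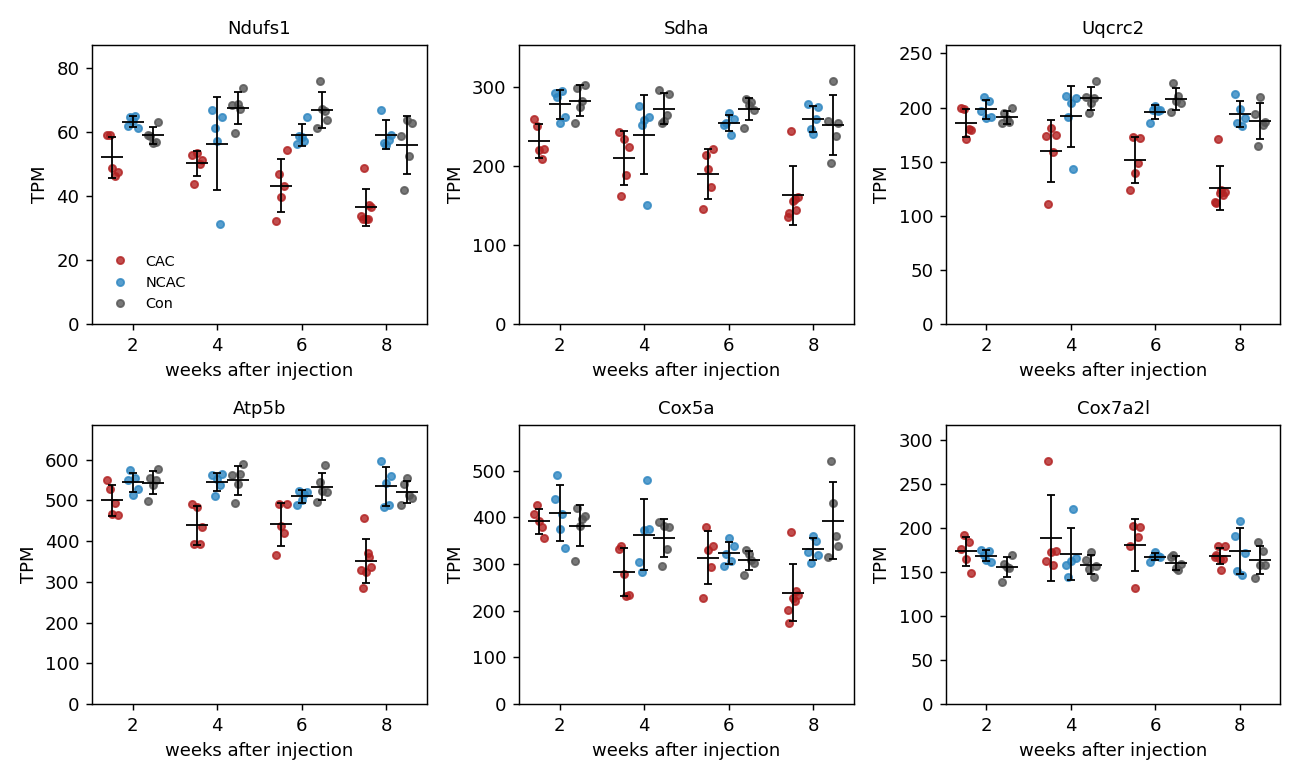
TPM of Ndufs1, Sdha, Uqcrc2, Atp5b, Cox5a and Cox7a2l in each library (points) by week for CAC, NCAC and Con, with mean and SD. At 8 weeks the CAC mean is the lowest of the 3 arms for the first 5, with replicate 3 as the highest CAC point, whereas for Cox7a2l the arms overlap.

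At 2 weeks no respiratory chain gene passed the test between CAC and Con, and the median of the set lay above 0. By limma 0 of the 80 were called, with 14 at an unadjusted p under 0.05, and 0.00822 percent of all tested genes were called higher. The median log2 difference of the 80 was 0.10 as deposited, against -0.07 over all tested genes. In 15 of them every CAC liver was above every Con liver, against 2.08 percent of all tested genes, and in 21 after rescaling, against 4.17 percent. One of these, Cox7c, a small subunit of complex IV, was at 301, 293, 243, 301 and 272 TPM in CAC against 208, 213, 232, 211 and 206 TPM in Con, a log2 difference of 0.39 ± 0.11 that did not pass adjustment (adjusted p = 0.205). Uqcrb, a small subunit of complex III, was at 335, 352, 305, 342 and 321 TPM in CAC against 297, 271, 291, 277 and 279 TPM in Con, at 0.22 ± 0.09 (adjusted p = 0.376). A fit of the 2-week livers alone, which has its own estimate of the spread, called 14 of the 80. In it 1 was lower, against 4.56 percent of all tested genes, and 13 were higher, against 1.37 percent. Cox7c and Uqcrb were chosen from the 15 after their values were seen, and CAC replicates 1 and 4 of that week had pancreatic transcripts. Among genes with transcripts under 1 kb the median log2 difference was 0.11 for the 47 respiratory chain genes and 0.07 for all tested genes. After rescaling these medians were 0.19 and 0.14. All tested genes of 4 kb or more were at -0.17 as deposited. The shares without overlap cover genes of all lengths.

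At 4 weeks 3 genes were called lower in CAC than in Con, against 0.609 percent of all tested genes, and 0 higher, against 1.3 percent. They were Uqcrc2 at -0.40 ± 0.10 (adjusted p = 0.0167), Atp5b at -0.33 ± 0.08 (adjusted p = 0.0189) and Atp5a1 at -0.33 ± 0.09 (adjusted p = 0.0485). Uqcrc2 stood at 174, 111, 181, 159 and 174 TPM in CAC against 209, 195, 204, 208 and 224 TPM in Con, with no overlap. The CAC liver at 111 TPM was replicate 2. In it the median log2 level, less the mean of Con, was 0.08 over short genes and -0.42 over long genes. The part that transcript length has in the levels of that library was not tested. Atp5b stood at 491, 392, 484, 392 and 435 TPM in CAC against 562, 495, 539, 564 and 589 TPM in Con, again with no overlap. Ndufs1, Sdha and Atp5j likewise had every CAC liver below every Con liver, which makes 5 genes, against 1.93 percent of all tested genes. Ndufs1 was at 52.9, 43.7, 53.5, 50.2 and 51.2 TPM in CAC and 68.4, 59.7, 68.8, 67.2 and 73.7 TPM in Con. It was called after rescaling, at -0.36 (adjusted p = 0.0431), as was Uqcrc2 at -0.34 (adjusted p = 0.00563), 2 genes against 0.683 percent of all tested genes. The median log2 difference of the 80 genes was -0.12, against -0.05 over all tested genes. Leaving out Con replicate 5 gave 0 calls, with 16 genes at an unadjusted p under 0.05, leaving out CAC replicate 2 or 4 gave 1 and leaving out Con replicate 2 gave 5. With the 20 highest genes removed 82 of the 84 were tested and 13 were lower, against 1.89 percent of all tested genes.

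At 6 weeks 10 genes were called lower and 0 higher, against 10.3 and 5 percent of all tested genes, a share of the 80 close to the background. The lowest of them was Ndufs1 at -0.64 ± 0.12 (adjusted p = 0.000239), followed by Sdha at -0.53 ± 0.12 (adjusted p = 0.00217) and Uqcrc2 at -0.47 ± 0.10 (adjusted p = 0.000718). Ndufs1 was at 32.1, 47.0, 39.7, 43.3 and 54.3 TPM in CAC against 61.3, 76.0, 67.2, 66.5 and 63.9 TPM in Con. Sdha was at 145, 215, 196, 173 and 221 TPM in CAC against 248, 285, 277, 281 and 271 TPM in Con. The arms did not overlap for either gene, nor for Uqcrc2, Ndufa9, Atp5a1 and Atp5b, 6 genes against 10 percent of all tested genes. The other calls were Ndufa9, Ndufa10, Ndufb3, Uqcrb, Atp5a1, Atp5b and Atp5f1, with log2 differences between -0.31 and -0.24. The median of the 80 was -0.09 (0.04 after rescaling), against -0.12 over all tested genes. That of complex IV, in which 0 genes were called by limma, with 0 at an unadjusted p under 0.05, was 0.05, and -0.10 with the 20 highest genes removed. No difference between complexes was tested. With those 20 genes removed 30 of 82 genes were called lower, against 31.3 percent of all tested genes. After rescaling 3 genes were lower, Ndufs1 at -0.51 (adjusted p = 0.000313), Sdha at -0.40 (adjusted p = 0.00248) and Uqcrc2 at -0.34 (adjusted p = 0.00167), against 5.82 percent of all tested genes. Rescaled, 1 was higher, Uqcrq at 0.54 (adjusted p = 0.0243), against 8.5 percent. Uqcrq was at 213, 371, 319, 275 and 278 TPM in CAC against 216, 214, 205, 237 and 206 TPM in Con, so 4 of 5 CAC livers were above all Con livers, and CAC replicate 1 was not. Rescaled, it was at 241, 367, 339, 282 and 280.0 in CAC against 201, 223, 207, 212 and 182 in Con, with no overlap. On that scale 7 genes had every CAC liver above every Con liver, against 6.92 percent of all tested genes, and 3 had every CAC liver below, against 5.56 percent. Leaving out single livers moved the 10 calls to between 4 (without CAC replicate 1) and 13. It gave 6 without CAC replicate 3 or 4, 5 without Con replicate 2 or 4, and 2 without the libraries that held other tissues, against 2.11 percent of all tested genes.

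**Figure D5:**
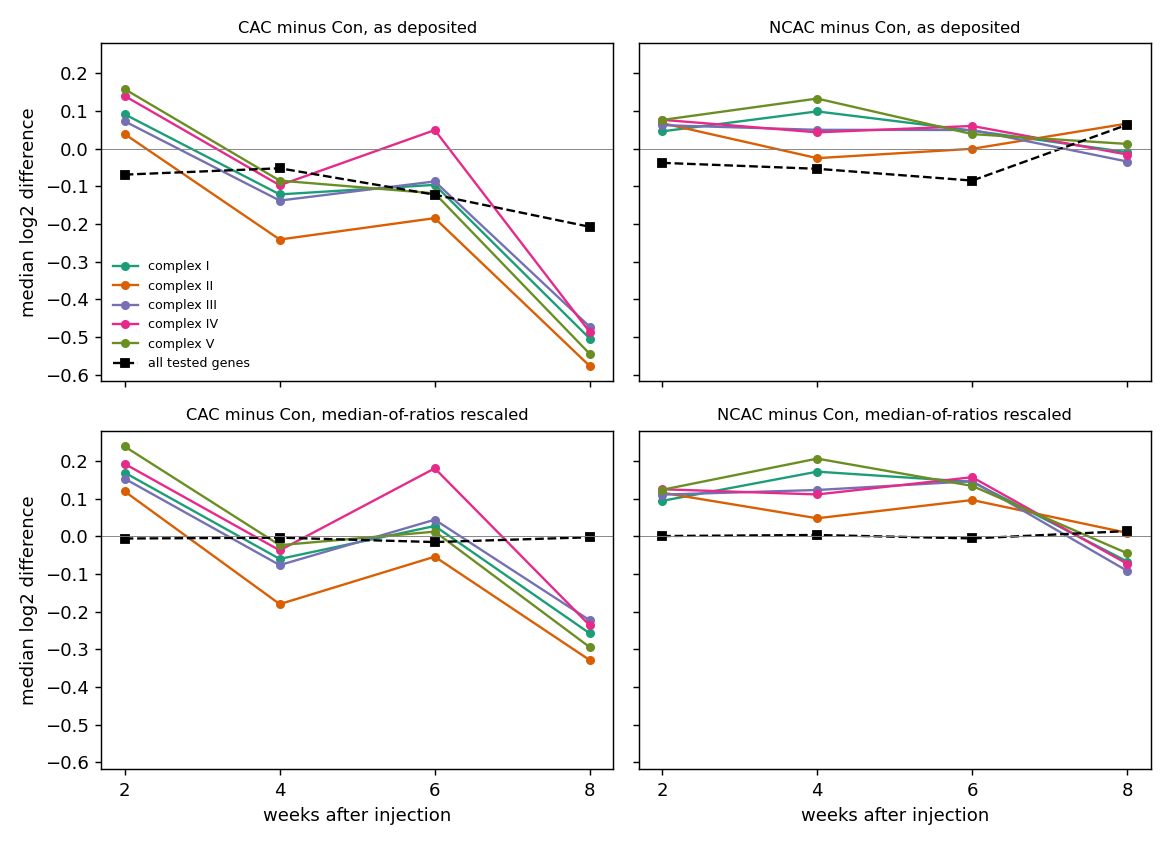
The median log2 difference of the tested genes of each complex, and of all 12160 tested genes, at 2, 4, 6 and 8 weeks, for CAC minus Con and NCAC minus Con, as deposited and after median-of-ratios rescaling. In CAC the medians of all 5 complexes are lowest at 8 weeks on the deposited scale, between -0.58 and -0.47, and in NCAC none moves that far.

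Fitted as a line over the 4 times, the difference between CAC and Con fell in 51 of the 80 genes and rose in 0, against 12.3 percent of all tested genes called lower and 3.35 percent higher, with a median slope of -0.16 per 2 weeks on the log2 scale, against -0.05. The line weights the outer weeks most, and a called slope does not show a steady fall. Over the 79 genes with an annotated length the median difference was 0.10, -0.12, -0.09 and -0.50 at 2, 4, 6 and 8 weeks. It did not fall between 4 and 6 weeks. Among genes with transcripts under 1 kb the median slope was -0.17 for the 47 respiratory chain genes and -0.13 for all tested genes. Between 1 and 2 kb these medians were -0.16 and -0.09, between 2 and 4 kb -0.15 and -0.05, and above that -0.26 and -0.00. The 51 calls were 24 in complex I, 3 in complex II, 5 in complex III, 5 in complex IV and 14 in complex V. Cox7c had the steepest slope of those with the smallest p in their complex, -0.28 ± 0.05 per 2 weeks (adjusted p = 6.05e-05), followed by Ndufb5 at -0.25 ± 0.04 (adjusted p = 6.51e-05) and Atp5g3 at -0.22 ± 0.04 (adjusted p = 0.000148). After rescaling 15 slopes were called lower, against 5.57 percent of all tested genes. Without the libraries that held other tissues 14 were, against 4.7 percent, and with both changes 0 were, by limma, with 9 at an unadjusted p under 0.05, against 1.82 percent. Con livers at 8 against 2 weeks gave 0 calls among the 80, with 4 at an unadjusted p under 0.05 and a median log2 difference of 0.04, against 0.296 percent of all tested genes called either way.

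In NCAC livers no respiratory chain gene was called against Con at any week. By limma the counts were 0, 0, 0 and 0 at 2, 4, 6 and 8 weeks, with 3, 5, 0 and 1 genes at an unadjusted p under 0.05, and 0, 0, 0 and 0.181 percent of all tested genes were called either way. The median log2 differences of the 80 were 0.06, 0.09, 0.04 and -0.01, against -0.04, -0.05, -0.08 and 0.06 over all tested genes. The smallest p in each week belonged to Uqcrb at 0.23 ± 0.09 (adjusted p = 0.379), Atp5g1 at 0.51 ± 0.15 (adjusted p = 0.617), Atp5e at 0.27 ± 0.18 (adjusted p = 0.613) and Cox5b at -0.36 ± 0.13 (adjusted p = 0.314). NCAC replicate 4 at 4 weeks, with pancreatic transcripts, had a sum of 20474 TPM over the 84 genes and the highest level of its group for 69 of 80. Ndufs1 in it was 31.2 TPM and Sdha 151 TPM, the lowest of the group. In this library the median log2 level, less the mean of Con, was 0.43 over short genes and -0.71 over long genes. The part that transcript length has in its levels was not tested.

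CAC against NCAC livers compares the 2 tumour arms directly. At 8 weeks 71 of the 80 genes were called lower in CAC, against 43.1 percent of all tested genes, with a median log2 difference of -0.47, against -0.26 over all tested genes. The smallest p of each complex belonged to Ndufa9 at -0.60 ± 0.08 (adjusted p = 1.82e-08), Sdhc at -0.60 ± 0.09 (adjusted p = 5.06e-07), Uqcrc2 at -0.63 ± 0.09 (adjusted p = 4.23e-07), Cox7c at -0.55 ± 0.10 (adjusted p = 2.53e-05) and Atp5g3 at -0.70 ± 0.09 (adjusted p = 1.22e-08). In 12 genes every CAC liver was below every NCAC liver, against 14 percent of all tested genes, a share of the 80 close to the background. After rescaling 13 of the 80 were called lower, against 13 percent of all tested genes, with a median of -0.17, and 7 did not overlap, against 3.94 percent. At 2 weeks 0 genes were called, with 3 at an unadjusted p under 0.05, by limma, against 0 percent of all tested genes. At 4 weeks 2 were lower, Ndufa10 at -0.30 ± 0.08 (adjusted p = 0.044) and Atp5b at -0.32 ± 0.08 (adjusted p = 0.0341), against 0.156 percent. That count became 5 without NCAC replicate 2, 1 without CAC replicate 2 or 3 or NCAC replicate 1 or 4, and 0 without CAC replicate 4 or 5 or NCAC replicate 3 or 5, with 15 to 25 genes at an unadjusted p under 0.05. At 6 weeks 4 were lower, Ndufa9, Ndufs1, Sdha and Uqcrc2, at -0.33, -0.46, -0.43 and -0.38, against 5.54 percent, and the same 4 were called after rescaling, against 6.55 percent. With the 20 highest genes removed 39 of 82 were lower, against 16.5 percent of all tested genes. The count was 2 without CAC replicate 1, 8 without CAC replicate 2, 9 without CAC replicate 5 and 1 without the libraries that held other tissues, against 2.13 percent. The comparisons of CAC with Con and of CAC with NCAC share the CAC livers, and those of CAC and of NCAC with Con share the Con livers.

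The transcripts of the subunits differ in length, and after rescaling the genes called lower at 8 weeks were 5 of 47 genes under 1 kb, 8 of 25 between 1 and 2 kb, 5 of 5 between 2 and 4 kb and 0 of 2 above that. Across 79 genes with an annotated length, Spearman's rho of length with the log2 difference between CAC and Con was -0.42 at 6 weeks and -0.15 at 8 weeks on the deposited scale. In comparisons where none of the 80 was called it was -0.38 for NCAC against Con at 6 weeks, -0.29 at 4 weeks and -0.33 for Con livers at 8 against 2 weeks. It was weaker in the other comparisons without a call, at 0.02 for NCAC against Con at 8 weeks and -0.22 at 2 weeks. For the CAC livers of 2 weeks rho was -0.27 against Con and -0.14 against NCAC. These genes share their libraries and are not independent. Over all tested genes the deposited median at 6 weeks ran the same way, at -0.02 for genes under 1 kb and -0.22 for those of 4 kb or more. At 8 weeks it ran the other way, at -0.35 for genes under 1 kb and -0.13 for those of 4 kb or more. RNA quality is not given in the sources used here, and its part in this pattern was not tested.

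Other genes that serve the chain were counted the same way in CAC against Con at 8 weeks, where 35.3 percent of all tested genes were called lower. On the deposited scale 5.87 percent were called higher, and after rescaling 13.9 percent were called lower and 12.8 percent higher. The carriers and partners of the chain had 12 of 15 lower (median log2 difference -0.44), and 5 after rescaling. Among them Etfa, which brings electrons from fatty acid oxidation, stood at 236 ± 42.7 TPM in CAC against 359 ± 25.4 TPM in Con, a difference of -0.61 ± 0.08 (adjusted p = 7.21e-08). Gpd2, the mitochondrial glycerol phosphate dehydrogenase, stood at 4.33 ± 1.32 TPM in CAC against 10.9 ± 2.84 TPM in Con (-1.16 ± 0.21, adjusted p = 1.75e-05). Assembly factors had 31 of 44 lower and 1 higher (median -0.38), and 10 lower and 3 higher after rescaling, with Surf1 of complex IV at -0.52 ± 0.07 (adjusted p = 2.63e-07) and Atpaf2 of ATP synthase at -0.62 ± 0.10 (adjusted p = 3.13e-06). The citric acid cycle and pyruvate dehydrogenase had 13 of 18 lower (median -0.47), and 8 lower and 1 higher after rescaling, with Pdhb at -0.75 ± 0.12 (adjusted p = 1.91e-06) and Idh3g at -0.73 ± 0.11 (adjusted p = 5.46e-07). Coenzyme Q synthesis had 9 of 13 lower (median -0.38), and genes that shape the inner membrane 7 of 11 (median -0.33), with Immt of the cristae junctions at -0.61 ± 0.09 (adjusted p = 2.19e-07). After rescaling these lists had 4 and 1 lower, and 1 higher each.

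The mitochondrial ribosome had 59 of 77 lower (median -0.38), and 17 after rescaling, and mitochondrial import 11 of 22 (median -0.26), and 3 lower and 1 higher after rescaling. Regulators of respiratory genes had 8 of 21 lower and 1 higher (median -0.18), close to the background, and 3 lower and 1 higher after rescaling. Lower ones included Tfam, which packs and transcribes mitochondrial DNA, at -0.43 ± 0.08 (adjusted p = 3.85e-05), and Esrrg, an estrogen-related receptor, at -0.81 ± 0.21 (adjusted p = 0.002). The 13 mitochondrially encoded transcripts had 4 lower (median -0.23, and 0.02 after rescaling), and 8 lower at 6 weeks, against 10.3 percent of all tested genes in that week. Proteasome subunits, which have no role in respiration, had 35 of 38 lower (median -0.47) and 14 after rescaling. Cytosolic ribosomal protein genes had 9 of 90 lower (median -0.12), and 1 lower and 5 higher after rescaling. At 8 weeks 35.3 percent of all tested genes were called lower as deposited, and after rescaling 13.9 percent lower and 12.8 percent higher. These lists were read by their counts alone, and no difference between a list and the respiratory chain genes was tested.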

How the data were processed

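The values, TPM by the authors, came as 1 deposited table of 47643 symbols by 62 liver libraries, and each column summed to 1e+06. Trizol extraction, stranded TruSeq mRNA libraries and NovaSeq sequencing are stated per the labels' protocols. The genome was mm10, per the submitters' processing notes. Aligner, quantifier and read numbers: not given in the sources used here. Depth and counting error are therefore unknown, and no count model was used. All columns were matched to a sample by name (0 unmapped).

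A gene entered if 5 or more libraries reached 1 TPM, which kept 12160. Their log2(TPM + 1) was fitted by limma 3.58.1 (R 4.3.3) as 12 group means, and the spread was moderated with a trend. Values given as ± after a log2 difference are standard errors, and differences on this scale understate the change of low genes. P-values were adjusted by Benjamini-Hochberg within each of 14 comparisons, called at 0.05, and measure the spread between libraries. Slopes used weights 3 and 1 for outer and inner weeks. Gene positions and lengths are from GENCODE M21 (mm10), and promoters from RefSeq. The pipeline was tested on simulated data. The genes named are, per complex, the smallest p, the highest and lowest differences and the most abundant, plus paralog forms, per later week the calls, and examples from each list. The members, lists and tests were chosen with earlier results of these data known. Alternatives were other pseudocounts (0.1), filters, rescalings, a fit of the same week, blocking on the replicate number, and omission of single libraries. Chosen after seeing the data were the fits without the 9 pancreatic or all 15 other-tissue libraries, and rescaling with a library left out. Whether same-numbered livers pair was checked: 10 of 60 same-numbered pairs had deviations that correlated above 0.1, and no comparison had all pairs above it, so the livers were not treated as pairs. The most was 3 of 5 pairs, for CAC against NCAC at 6 weeks (mean correlation 0.11, against -0.03 for other pairs). The limit of 0.1 was a choice, and this check cannot exclude a shared cage or injection day. The values of 1 gene, which stays in the counts, are not reported here. Figures were drawn with Python 3.11.15 and matplotlib 3.10.9.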

Additional observations from a re-analysis of the deposited data

Results flagged for a closer look

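Within groups of 5 to 7 livers, 165 sets of values were tested for a library that stands apart, that is, a highest or lowest value whose gap to the nearest other value takes up more of the group's range than Dixon's 95 percent limit. Of these, 33 did, whereas chance gives about 1 in 20, and the values of genes in 1 library are not independent.

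In CAC livers at 8 weeks replicate 3 stood above the others. Its summed TPM was 4958 for complex I (nearest other 3731), 805 for complex II (576), 2236 for complex III (1621), 3624 for complex IV (2775) and 3576 for complex V (2744). Single genes that stood out in it were Ndufa10 at 92.5, Ndufa6 at 392, Ndufb9 at 529.9, Sdha at 245, Sdhb at 179, Uqcrc1 at 101, Uqcrc2 at 171, Uqcr10 at 407, Uqcrh at 301, Cox5a at 368, Cox8a at 622, Atp5a1 at 554 and Atp5l at 608 TPM. In other CAC livers at 8 weeks Atp5s was low in replicate 5 at 3.51 TPM, Cox6a2 high in replicate 6 at 1.88 TPM and Cox8b high in replicate 7 at 5.17 TPM.

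Replicate 5 of CAC at 2 weeks was low for complex I (4963, nearest other 5211) and complex IV (3684, nearest other 3919). Replicate 1 of Con at 2 weeks was low for complexes I (4229.7, nearest other 5036), III (1840.4), IV (3130.3) and V (3296). Replicate 1 of NCAC at 6 weeks was low for complex V (3320.4), and replicate 3 of Con at 8 weeks was high for complex II (967, nearest other 826). NCAC replicate 5 at 8 weeks, with muscle transcripts, was high for Ndufa4l2 at 8.97 TPM. Con replicate 2 at 8 weeks, with pancreatic and muscle transcripts, was high for Cox6a2 at 15.8, Cox7a1 at 10.8 and Cox8b at 17.9 TPM.

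The difference between CAC and Con changed with the weeks in 51 of the 80 genes, all lower, by a test of the slope itself, against 12.3 percent of all tested genes called lower and 3.35 percent higher. A called slope does not show that the change was steady. After rescaling 15 slopes were called, and 0 with rescaling and no other-tissue libraries, by limma, with 9 at an unadjusted p under 0.05. The slopes with the smallest p in each complex were -0.25 per 2 weeks for Ndufb5, -0.20 for Sdhc, -0.18 for Uqcrb, -0.28 for Cox7c and -0.22 for Atp5g3.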

How the results depend on the processing

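The sequencing depth is unknown, so low levels such as those of Cox6a2 carry an error that cannot be stated, and 5 to 7 livers per group limit the precision. Counts are of genes called by limma among the 80, or among 82 with the 20 highest genes removed. The share over all tested genes moves with the setting as well. At 6 weeks against Con 31.3 percent were called lower with the 20 highest genes removed and 2.11 percent without the other-tissue libraries. A count given here without its share does not show whether these genes differ from other genes. The median of CAC against Con at 8 weeks stayed below 0 under the other scalings, between -0.67 (20 highest genes removed) and -0.17 (quantile), and was -0.06 with rescaling and no other-tissue libraries.

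For CAC against Con at 8 weeks, where 70 were called, median-of-ratios rescaling gave 18 and quantile normalization 22 (21 lower, 1 higher). With median-of-ratios rescaling 13.9 percent of all tested genes were called lower and 12.8 percent higher. Rescaling without the other-tissue libraries gave 9 (8 lower, 1 higher), against 8.54 percent of all tested genes lower and 9.65 percent higher. Omitting single livers gave 66 to 73, and with rescaling 18, 15, 31, 17, 22, 17 and 17 without CAC replicates 1 to 7 and 27, 12, 15, 16 and 36 without Con replicates 1 to 5. Without the pancreatic libraries 60 were called. Of the counts of calls, 280 were within 1.5 times the reported one and 62 were not; of the single genes' log2 differences, 709 kept direction and side of the threshold, 55 no longer passed, 9 newly passed and 28 changed sign; the cause of these shifts was not tested.

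At 2 weeks a fit of that week alone called 14 (1 lower, 13 higher) against Con and 3 against NCAC. At 4 weeks against Con the counts were 13 with the 20 highest genes removed, 0 in a fit of that week (14 at an unadjusted p under 0.05), 5 without the pancreatic libraries and 0 to 5 without single livers. Against NCAC they were 10 with the 20 highest genes removed, 0 in a fit of that week (13 at an unadjusted p under 0.05), 0 without the pancreatic (7) or other-tissue libraries (5), 0 with rescaling as well (7) and 0 to 5 without single livers. At 6 weeks against Con they were 4 with rescaling (3 lower, 1 higher), 30 with the 20 highest genes removed, 6 without the pancreatic, 2 without the other-tissue libraries, 3 with rescaling as well and 4 to 13 without single livers. Against NCAC they were 39 with the 20 highest genes removed, 1 without the other-tissue libraries and 2 to 9 without single livers. At 8 weeks against NCAC they were 13 with rescaling, 20 with quantile normalization, 10 with rescaling and no other-tissue libraries and 62 to 74 without single livers. Calls of a slope were 15 with rescaling, 9 with quantile normalization, 21 without the pancreatic and 14 without the other-tissue libraries, 0 with rescaling as well (9 at an unadjusted p under 0.05) and 40 to 62 without single livers. Of all tested genes, 1.89 percent at 4 weeks were lower against Con with the 20 highest genes removed. Against NCAC 16.5 percent were lower at 6 weeks with those genes removed, and 13 percent at 8 weeks with rescaling. Slopes called lower were 5.57 percent of all tested genes with rescaling, 4.7 percent without the other-tissue libraries and 1.82 percent with both. Counts of this paragraph with no share here or above are not a result about these genes.

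Same-numbered livers were not treated as pairs. With the replicate number as a block the calls at 8 weeks were 67 against Con and 64 against NCAC, 1 at 4 weeks against NCAC, and 41 slopes.

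Log2 differences of CAC against Con at 8 weeks that changed sign were these. With rescaling and no other-tissue libraries they were 0.14 for Atp5g2, 0.060 for Atp5l, 0.36 for Cox6a2, 0.13 for Cox6b1, 0.29 for Cox7a1, 0.084 for Cox8b, 0.0097 for Ndufa4, 0.056 for Ndufa4l2, 0.22 for Ndufa7, 0.0022 for Uqcr10 and 0.22 for Uqcrh. With rescaling alone they were 0.027 for Ndufa7 and 0.031 for Uqcrh, and with quantile normalization 0.050 for Atp5g2, 0.12 for Ndufa7 and 0.15 for Uqcrh. With the 20 highest genes removed they were -0.098 for Atp5s and -0.13 for Cox7a2l. Without the pancreatic libraries they were 0.28 for Cox6a2, 0.26 for Cox7a1 and 0.39 for Cox8b, without all other-tissue libraries 0.31, 0.13 and 0.051. Without single livers Cox6a2 ran between -0.75 and 0.26, Cox7a1 between -0.43 and 0.23, Cox8b between -0.97 and 0.13, each highest without Con replicate 2, and Cox7a2l between -0.0025 (without Con replicate 1) and 0.087.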
